A study of Mus musculus with 6 samples.

Results

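Peaks of estrogen receptor alpha (ERα) CUT&RUN were collected at 34 genes of voltage-gated sodium and calcium channels in limbic brain tissue of male mice. The genes were taken by name, and encode pore-forming and auxiliary subunits of these channels and the fibroblast growth factor homologous factors that bind sodium channels. They are 34 of 21887 protein-coding genes of the RefSeq table for mm10. A peak was counted for a gene if it overlapped the gene span, or lay within 50 kb of it with that gene as the nearest protein-coding one. This gave 290 of the 82442 peaks in the 6 deposited lists, which merged into 162 of 39374 regions when overlapping or touching peaks were joined. Peaks within 1 kb of either end of their gene are called gene-end peaks, and all others, inside the span or beyond it, are called distal. Distal thus does not mean away from every start site. Of the 162 regions, 6 were distal but had a RefSeq start site of their gene within 1 kb, as far as start sites were known.

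CUT&RUN uses an antibody to bring micrococcal nuclease to a chromatin protein, so that short fragments around the protein are released and sequenced. There were 3 libraries from mice given estradiol benzoate (5 µg under the skin, in the dosed group only) and 3 from mice given corn oil as vehicle. All were adult C57/BL6 males, gonadectomized at 10 to 12 weeks of age, and nuclei were isolated 3 weeks after surgery and 4 hours after the injection. The animals of both groups therefore lacked testicular hormones, and the tissue was a mixture of all limbic cell types. Nothing in the labels ties a library to an animal of its own, so the spread between libraries may be technical. Replicate 3 of both groups carries no treatment or strain tag, takes its group from the sample title, and has peak names of another style, so it was handled as a batch of 1 library per group.

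Voltage-gated sodium channels carry the rising phase of the action potential, and voltage-gated calcium channels turn depolarization into calcium entry that drives transmitter release, firing patterns and gene transcription. Each channel has 1 large pore subunit that sets its type, and smaller subunits that change its gating or bring it to the membrane. ERα is a nuclear receptor for estradiol that binds DNA, often far from gene starts.

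The estradiol lists held 11082, 14123 and 17558 peaks in replicates 1, 2 and 3, and the vehicle lists 5421, 13717 and 20541. Vehicle replicate 1 is thus the shortest list by far. Peak height is given as the authors' −log10 q-value, which describes a peak within its own list, and higher values mean a clearer peak. The caller's values matched a whole number of fragments at the summit for all 290 channel gene peaks, under an assumed Poisson formula with a pseudocount of 1. These numbers ran from 4 to 23 with a median of 6, and 177 peaks (61.0%) held 4 to 6, and 4 was also the smallest number in each list. At this depth a peak missing from a list does not show that ERα was absent. Among cell type markers, distal peaks in at least 1 list were found at 9 of 9 neuronal genes, 3 of 4 astrocyte, 5 of 5 oligodendrocyte, 3 of 4 microglial and 2 of 3 endothelial genes, and at 0 of 5 genes of liver, heart, pancreas and skin, where 40.8% of all protein-coding genes had one. Gene-end peaks were found at 6 of 9, 2 of 4, 2 of 5, 0 of 4 and 0 of 3 of these brain genes in the same order and at 1 of 5 non-brain genes, where 37.7% of all genes had one. The non-brain genes are short (1.07 to 26.1 kb), and the markers do not single out a cell type. These lists do not measure expression.

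Most of the channel genes had a peak, and most of their peaks were distal. A distal peak in at least 1 list was found at 31 of 34 genes (91.2%), where the background over all protein-coding genes was 40.8%. Gene-end peaks were found at 10 of 34 genes (29.4%), where the background was 37.7%. The channel genes have long spans, with a median of 129 kb against 17.2 kb for all protein-coding genes, and long genes offer more room for distal peaks. Counted inside spans and away from gene ends, channel genes held 3.19, 5.27 and 8.74 peaks per Mb in estradiol replicates 1, 2 and 3, against 3.08, 4.10 and 5.72 over all genes. In vehicle replicates 1, 2 and 3 they held 1.53, 4.85 and 6.93 peaks per Mb, against 1.28, 3.93 and 6.68 over all genes. The lengths used were whole spans with the gene ends left in, and these make up more of a short gene. By this measure the channel genes were above all genes in each of the 6 lists, with the widest gap in estradiol replicate 3. Small gaps, such as that of estradiol replicate 1, may depend on this choice of length. No test was made of this.

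**Figure D1:**
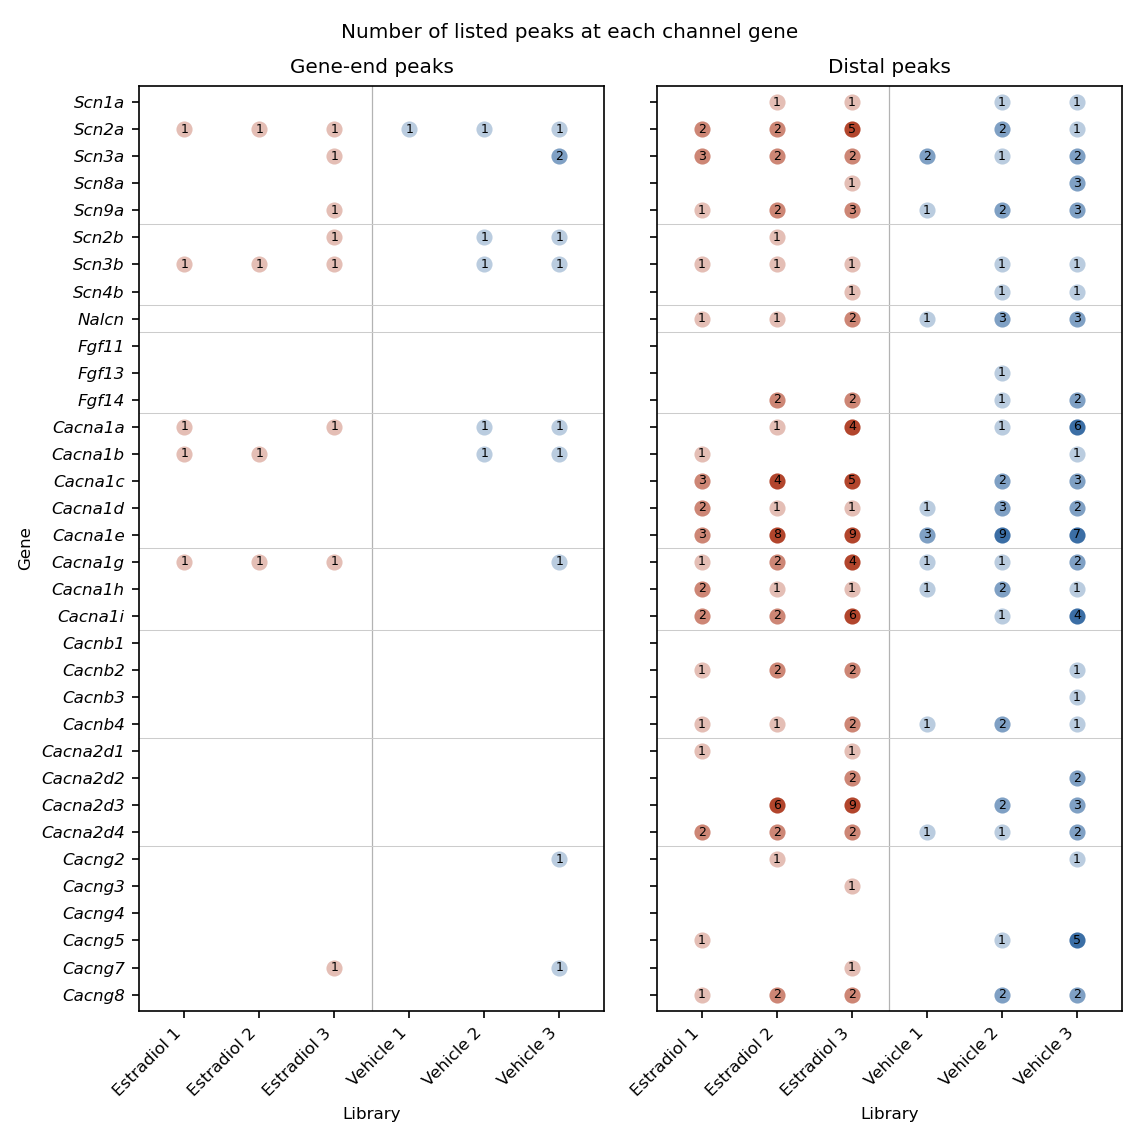
Number of listed peaks at each of the 34 genes (rows, grouped by subunit family) in each library (columns), with gene-end peaks in the left panel and distal peaks in the right panel. Estradiol libraries are red, vehicle libraries blue, darker dots hold more peaks, and an empty place means no listed peak; gene-end peaks appear at 10 genes and distal peaks at 31.

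By number of lists, 9 of 34 genes (26.5%) had a distal peak in all 6, where the background was 4.51%. These were the sodium channel genes Scn3a and Scn9a, the sodium leak channel gene Nalcn, and the calcium channel genes Cacna1d, Cacna1e, Cacna1g, Cacna1h, Cacnb4 and Cacna2d4. The peaks of a gene need not lie at the same place. At Scn3a, Scn9a, Cacna1d and Cacnb4 no single region was in all 6 libraries, and the most shared had 5, 4, 5 and 4. Of these 9, Cacna1d and Cacna2d4 would not have reached all 6 lists without a region that also lay inside another gene (Dcp1a and Lrtm2). The shares are not adjusted for the long spans of the channel genes. No gene had distal peaks in 3 of 3 estradiol and 0 of 3 vehicle lists (background 0.270%), and none in 0 of 3 estradiol and 3 of 3 vehicle lists (background 0.0959%). A gene-end peak in all 6 lists was found at 1 gene, Scn2a (2.94%, background 9.39%), and no gene had gene-end peaks in all lists of one group and none of the other (background 0.228% for estradiol and 0.0457% for vehicle). Peaks were more widespread over the estradiol lists than over the vehicle lists at 10 genes for distal peaks, and less so at 4, with equal numbers at 17. Over all 21887 protein-coding genes these numbers were 3248, 2779 and 2894. For gene-end peaks they were 3, 2 and 5 at the channel genes and 2768, 1909 and 3574 over all genes.

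The number of channel genes with a peak was similar in both groups, with differences smaller than the SD of either group. Distal peaks were found at 18, 21 and 25 genes in estradiol replicates 1, 2 and 3 (21.3 ± 3.51, SD, n = 3) and at 9, 21 and 26 genes in vehicle replicates 1, 2 and 3 (18.7 ± 8.74, SD, n = 3). Gene-end peaks were found at 5, 4 and 8 genes in the estradiol replicates (5.67 ± 2.08, SD, n = 3) and at 1, 5 and 9 in the vehicle replicates (5.00 ± 4.00, SD, n = 3). The groups overlap in both measures, and the lowest value of each belongs to vehicle replicate 1. Without that library the differences (estradiol minus vehicle) were -2.17 genes for distal and -1.33 for gene-end peaks, where they were 2.67 and 0.667 with all 6.

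Relative to list length, distal channel gene peaks numbered 2.62, 3.19 and 3.99 per 1000 listed peaks in estradiol replicates 1, 2 and 3 (3.26 ± 0.688, SD, n = 3). The vehicle replicates held 2.21, 2.92 and 2.97 per 1000 (2.70 ± 0.422, SD, n = 3). The ranges overlap, and the difference of 0.564 per 1000 is smaller than the SD of the estradiol libraries and larger than that of the vehicle libraries. Within replicates 1 and 2 the difference was 0.337, and in replicate 3, with 1 library per group, it was 1.02. With the 5421 highest peaks of each list it turned to -0.246 per 1000.

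**Figure D2:**
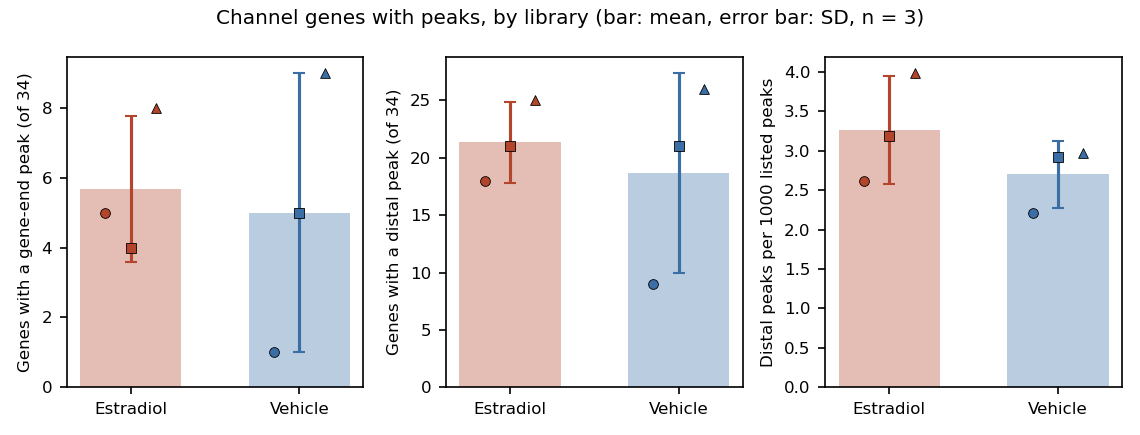
Genes with a gene-end peak, genes with a distal peak (both of 34), and distal channel gene peaks per 1000 listed peaks, for the estradiol (red) and vehicle (blue) libraries. Bars are means, error bars the SD of 3 libraries, and circles, squares and triangles are replicates 1, 2 and 3; the groups overlap in all 3 panels, and vehicle replicate 1 is the lowest library in each.

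Of the 162 regions, 130 lay inside a gene span away from its ends, 20 outside the span and 12 at a gene end (7.41%, background 23.9% of all regions). Regions seen in 1 library made up 110 of 162 (67.9%, background 58.9%), and 103 of these 110 peaks held 4 to 6 fragments. Regions in all 6 libraries numbered 6 of 162 (3.70%, background 7.27%), and 12 were shared by the other 5 libraries when vehicle replicate 1 was left out. Of 8 regions found in 5 libraries, 6 lacked a peak in vehicle replicate 1 alone.

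Regions with peaks in 3 of 3 estradiol and 0 of 3 vehicle libraries numbered 2 of 162 (1.23%, background 0.737%), and regions with the reverse pattern 0 of 162 (background 0.112%). The 2 regions lay at Scn2a and Cacna1e. With 3 libraries against 3, the smallest p an exact test of a single region can give is 0.1, so neither was tested. Their number was 7 without estradiol replicate 1, 4 without estradiol replicate 3 and 4 without vehicle replicate 3, and it was 0 among peaks with a −log10 q of at least 5. Where 2 libraries of a group and none of the other sufficed, there were 9 estradiol regions (5.56%, background 3.71%) and 1 vehicle region (0.617%, background 2.60%). The 7 added estradiol regions were 3 inside Cacna2d3, 1 each inside Cacna1c, Cacna1g and Cacna2d4, and 1 that lay 15.3 kb from Scn3a, while the vehicle region lay inside Scn1a. These genes were named after their values were seen. Peaks of those 7 regions held 4 to 8 fragments. The Cacna2d4 peak ranked above 66.6% of the list of estradiol replicate 2 and a Cacna2d3 peak above 65.9% of that of estradiol replicate 3, and the others ranked at 51.1% or lower.

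Among the sodium channel pore genes, Scn2a encodes the channel found at the axon initial segment of excitatory neurons, and had the one gene-end region that all 6 lists shared. The gene (chromosome 2, 65620764 to 65767447 on mm10, + strand) had 7 regions, of which 5 lay inside its span, 1 at its upstream end and 1 outside. The region at the gene's upstream end, 65620640 to 65620731, had a −log10 q of 2.81, 12.5 and 10.6 in estradiol replicates 1, 2 and 3 and of 5.98, 12.7 and 14.7 in vehicle replicates 1, 2 and 3, standing on 5, 13 and 13 fragments in the estradiol replicates and 8, 11 and 15 in the vehicle replicates. All 6 libraries held it, and the groups overlap. A second region inside the gene, 65668523 to 65668674, lay at another RefSeq start site, 47.8 kb into the span. It had a −log10 q of 9.07, 6.18 and 9.90 in the estradiol replicates and of 14.3 and 11.1 in vehicle replicates 2 and 3, with no listed peak in vehicle replicate 1.

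The estradiol-only region of Scn2a, 65616308 to 65616432, lay 4.33 kb beyond the upstream end of the gene. Estradiol replicates 1, 2 and 3 gave it a −log10 q of 2.08, 3.73 and 6.63, on 4, 6 and 9 fragments. In estradiol replicate 1 it ranked above 1.38% of the listed peaks, in replicate 2 above 33.4% and in replicate 3 above 70.6%. It was thus a low peak in estradiol replicates 1 and 2. The nearest vehicle peak was that of the gene's upstream end, 4228, 4208 and 4223 bp away in vehicle replicates 1, 2 and 3. No vehicle library therefore held a peak in the stretch between these regions.

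**Figure D3:**
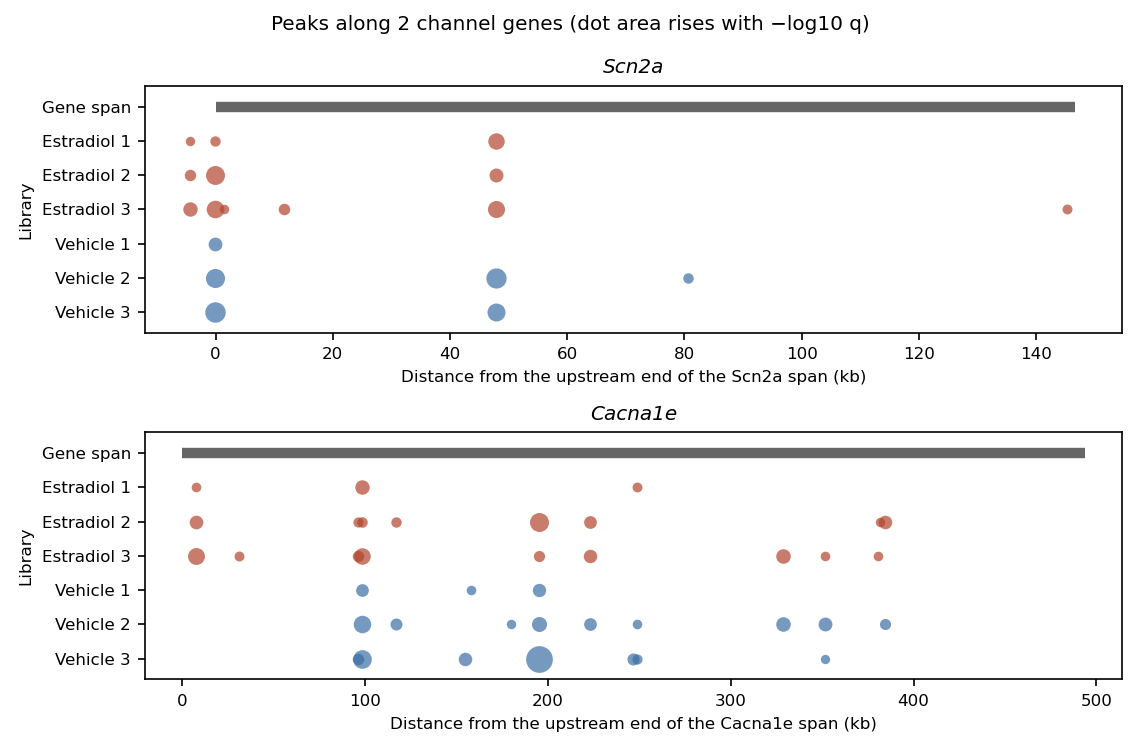
Peaks along Scn2a (top) and Cacna1e (bottom), by distance in kb from the upstream end of the gene span, with 1 row per library, estradiol libraries (red) above vehicle libraries (blue). Dot area rises with −log10 q and the grey bar is the gene span; all 3 estradiol rows and no vehicle row have a dot 4.33 kb before Scn2a and 7.84 kb into Cacna1e.

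RefSeq promoter windows of mm10 (build GRCm38.p6), reaching from 250 bases before to 50 bases after a start site, were matched for 27 of the 34 genes by symbol and ID (41 windows). The windows with a peak in 3 or more lists are shown, because they carry the start-site regions described here. Capitals mark the bases covered by the merged region, and each is written 5′ to 3′ on the gene's own strand.
Scn2a upstream start, chr2:65620519-65620818, + strand: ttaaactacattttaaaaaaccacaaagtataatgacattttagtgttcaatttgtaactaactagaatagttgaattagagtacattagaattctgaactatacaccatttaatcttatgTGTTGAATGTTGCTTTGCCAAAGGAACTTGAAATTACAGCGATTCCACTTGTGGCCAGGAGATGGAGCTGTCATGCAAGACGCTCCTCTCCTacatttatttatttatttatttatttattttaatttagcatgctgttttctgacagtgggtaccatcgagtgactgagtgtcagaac
Scn2a inner start, chr2:65668436-65668735, + strand: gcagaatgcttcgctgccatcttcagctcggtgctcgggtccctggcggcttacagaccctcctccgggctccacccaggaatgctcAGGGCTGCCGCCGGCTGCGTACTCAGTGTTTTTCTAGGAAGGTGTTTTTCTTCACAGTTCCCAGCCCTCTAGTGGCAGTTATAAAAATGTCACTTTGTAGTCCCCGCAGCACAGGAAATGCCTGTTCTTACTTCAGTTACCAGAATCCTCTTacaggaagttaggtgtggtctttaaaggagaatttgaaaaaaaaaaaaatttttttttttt
Cacna1b, chr2:24763103-24763402, - strand: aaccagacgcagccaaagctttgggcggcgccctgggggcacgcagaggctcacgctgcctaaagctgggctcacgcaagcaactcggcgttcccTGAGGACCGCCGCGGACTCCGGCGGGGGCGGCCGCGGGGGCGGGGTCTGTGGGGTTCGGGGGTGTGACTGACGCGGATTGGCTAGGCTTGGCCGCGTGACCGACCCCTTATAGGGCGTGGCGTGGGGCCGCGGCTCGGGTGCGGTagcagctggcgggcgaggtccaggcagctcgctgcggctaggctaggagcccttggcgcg
Scn2b, chr9:45117626-45117925, + strand: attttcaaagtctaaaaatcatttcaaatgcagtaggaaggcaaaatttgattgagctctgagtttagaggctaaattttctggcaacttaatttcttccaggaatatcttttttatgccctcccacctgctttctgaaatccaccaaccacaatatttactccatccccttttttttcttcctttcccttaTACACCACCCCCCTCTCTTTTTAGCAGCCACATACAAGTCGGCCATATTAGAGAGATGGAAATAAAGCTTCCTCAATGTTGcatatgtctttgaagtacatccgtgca
Counted from the start site (base 1, the base before it being -1), the regions covered bases -129 to -38 and -163 to -12 at the Scn2a starts, -155 to -11 at Cacna1b and -58 to 23 at Scn2b. All 4 regions thus lay mostly or wholly before the start site. The windows differ in base composition, with 33.0%, 47.7%, 72.3% and 38.3% G and C in the order printed, where the median was 59.7% over the 41 channel gene windows and 52.7% over all 32851 windows.

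In these windows 4 motifs were searched on both strands. The full palindromic estrogen response element was in 0 of 41 channel gene windows and in 0.0700% of all windows. The AP-1 motif TGANTCA was in 2 (4.88%, all windows 7.81%), at Cacng5 and Fgf13. The GC box GGGCGG was in 16 (39.0%, all windows 35.7%) and CCAAT in 11 (26.8%, all windows 37.4%). Of the sequences printed, Cacna1b holds GC boxes at bases -228, -130 and -118 and a CCAAT match at -79, the last 3 of these inside its region, and the Scn2a and Scn2b windows hold none of the 4 motifs. A match is a description of letters in the window, and the lack of one says nothing about the receptor. Peaks lay on 6 of 41 windows in at least 1 list (14.6%, all windows 24.5%) and on 1 in all 6 lists (2.44%, all windows 6.79%).

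The other sodium channel pore genes had regions shared by 1 to 5 libraries. Scn3a, whose product is most abundant before and around birth, had 8 regions and 2 of them at a gene end. The gene-end region at 65567557 to 65567670 had a −log10 q of 10.7 in estradiol replicate 3 and 5.85 in vehicle replicate 3, with no peak in the other 4 libraries, so it was seen in the replicate 3 batch alone. A region 41.9 kb from Scn3a (65415144 to 65415268) had peaks in 5 libraries, with a −log10 q of 2.25, 5.40 and 4.36 in estradiol replicates 1, 2 and 3 and of 4.82 and 5.36 in vehicle replicates 1 and 2. Scn9a, known for its part in pain-sensing neurons, had 2 inside regions with peaks in replicates 2 and 3 of both groups. Scn1a, the main sodium channel of fast-spiking inhibitory neurons, had 3 regions, 2 of them in 1 library and the third in vehicle replicates 2 and 3. Scn8a, which serves axon initial segments and nodes of Ranvier, had 4 regions, each in 1 library. Scn3a, Scn2a, Scn1a and Scn9a lie together in 1.18 Mb of chromosome 2. Peaks counted for these 4 genes numbered 7, 8 and 14 in the estradiol replicates and 4, 7 and 10 in the vehicle replicates. Peaks of other genes in the stretch were left out.

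Beta subunits of sodium channels are single-pass membrane proteins that tune gating and cell adhesion. Scn3b (chromosome 9, 40269216 to 40291618) had 2 regions, both in 5 libraries and both lacking a peak in vehicle replicate 1. The gene-end region, 40269114 to 40269242, had a −log10 q of 6.49, 10.3 and 2.46 in estradiol replicates 1, 2 and 3 and of 4.06 and 7.45 in vehicle replicates 2 and 3. The other, 26.7 kb beyond the gene at 40242228 to 40242470, had 9.39, 6.38 and 4.04 in the estradiol replicates and 7.50 and 12.6 in vehicle replicates 2 and 3. It held the highest listed peak of the 20 regions outside spans. Scn2b had a start-site region in estradiol replicate 3 (−log10 q 3.62) and in vehicle replicates 2 and 3 (2.06 and 6.03). Scn4b, linked to resurgent sodium current, had 1 inside region with peaks in estradiol replicate 3 and in vehicle replicates 2 and 3.

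Nalcn, the pore of the background sodium leak that sets resting excitability, had a region that all 6 libraries shared. At 123513492 to 123513684 on chromosome 14, 114 kb into the gene, estradiol replicates 1, 2 and 3 had a −log10 q of 7.03, 15.8 and 9.65 (8, 14 and 10 fragments) and vehicle replicates 1, 2 and 3 had 2.68, 15.99 and 11.3 (5, 14 and 11 fragments). The groups overlap, and replicate 2 was the highest in both. The remaining 5 Nalcn regions were seen in 1 library each. Of the fibroblast growth factor homologous factors, which bind the tail of sodium channels, Fgf14 had 7 regions and Fgf13 had 1, each in 1 library, and Fgf11 had none.

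Among pore genes of high-voltage calcium channels, Cacna1e, the R-type channel, had 18 regions, the most of the 34 genes, all inside its span (chromosome 1, 154390806 to 154884785, - strand). It held 3, 8 and 9 distal peaks in estradiol replicates 1, 2 and 3 and 3, 9 and 7 in vehicle replicates 1, 2 and 3, so its number of peaks was alike in both groups. The estradiol-only region, 154876779 to 154876945, lay 7.84 kb from the upstream end of the span and had a −log10 q of 2.25, 5.85 and 9.65 in the estradiol replicates (4, 7 and 10 fragments). It was not near the 1 Cacna1e start site with a promoter window, and lay at -151 kb from it, upstream on the gene's strand. The nearest vehicle peaks were 90309, 90293 and 88501 bp away in vehicle replicates 1, 2 and 3. Of the 2 estradiol-only regions it held the higher peaks in each estradiol library, and it was not next to a region shared by both groups.

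Cacna1e also held a region found in all 6 libraries, 154786358 to 154786495, with a −log10 q of 6.67, 2.93 and 9.21 in estradiol replicates 1, 2 and 3 and of 4.86, 10.4 and 12.0 in vehicle replicates 1, 2 and 3. The highest peak of all channel genes was in a further Cacna1e region, 154689460 to 154689646, where vehicle replicate 3 had a −log10 q of 26.1 from 23 fragments. There vehicle replicates 1 and 2 had 5.49 and 7.33, estradiol replicates 2 and 3 had 12.5 and 3.47, and estradiol replicate 1 had no listed peak. A single vehicle library thus stood above the other 4 with a peak.

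The other high-voltage pore genes had 1 region in 5 libraries, at Cacna1d, and none in all 6. Cacna1c, an L-type channel that couples calcium entry to transcription, had 13 regions, all inside the gene, of which 11 were seen in 1 library. It held 3, 4 and 5 distal peaks in the estradiol replicates and 0, 2 and 3 in the vehicle replicates. Its highest peak, in vehicle replicate 3 alone (−log10 q 7.73), also lay inside Dcp1b, within 1 kb of an end of Dcp1b. That peak cannot be given to either gene. The most shared Cacna1c region, 118977855 to 118977991, had peaks in replicates 2 and 3 of both groups. Cacna1d, the other L-type pore gene among the 34, had a region in 5 libraries. This region also lay inside Dcp1a, an mRNA decapping factor gene, within 1 kb of an end of Dcp1a. That region cannot be given to either gene. Cacna1a, the P/Q-type channel of nerve terminals, had 10 regions and held 0, 1 and 4 distal peaks in the estradiol replicates and 0, 1 and 6 in the vehicle replicates, with replicate 3 the highest in both groups. Cacna1b, the N-type channel that triggers transmitter release, had its start-site region in estradiol replicates 1 and 2 (−log10 q 2.48 and 8.66) and in vehicle replicates 2 and 3 (8.50 and 6.30).

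T-type channels open at low voltage and support burst firing, and each of their 3 genes had a region in 5 or 6 libraries. Cacna1g had an inside region, 94468916 to 94469025 on chromosome 11, with a −log10 q of 8.27, 9.25 and 13.7 in estradiol replicates 1, 2 and 3 and of 3.33, 5.99 and 6.76 in vehicle replicates 1, 2 and 3. The estradiol peaks held 9, 10 and 16 fragments and the vehicle peaks 6, 8 and 9. Each −log10 q of an estradiol library was above each −log10 q of a vehicle library, which was so for this 1 of the 6 constant regions. The fragment numbers did not separate fully, since estradiol replicate 1 and vehicle replicate 3 both had 9. Heights come from lists of different depth and were not tested. At the gene end of Cacna1g (94474388 to 94474508) peaks were listed in all 3 estradiol libraries, with a −log10 q of 3.61, 5.94 and 15.3, and in vehicle replicate 3, with 10.2. The value in estradiol replicate 3 was the highest of any gene-end peak of the 34 genes.

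Cacna1h had a constant region inside the gene, 25418996 to 25419211 on chromosome 17, with a −log10 q of 10.0, 10.5 and 6.19 in estradiol replicates 1, 2 and 3 and of 3.47, 7.97 and 8.73 in vehicle replicates 1, 2 and 3. The groups overlap there. Cacna1i had a region in 5 libraries, 80373739 to 80373836 on chromosome 15, with a −log10 q of 9.03, 5.59 and 10.99 in the estradiol replicates and of 6.44 and 8.997 in vehicle replicates 2 and 3. A neighbouring Cacna1i region, 80366990 to 80367069, had peaks in all 3 estradiol libraries (2.74, 7.30 and 7.19) and in vehicle replicate 3 (9.92). Over the 3 T-type genes the estradiol replicates held 6, 6 and 12 peaks and the vehicle replicates 2, 4 and 8, and the groups overlap.

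**Figure D4:**
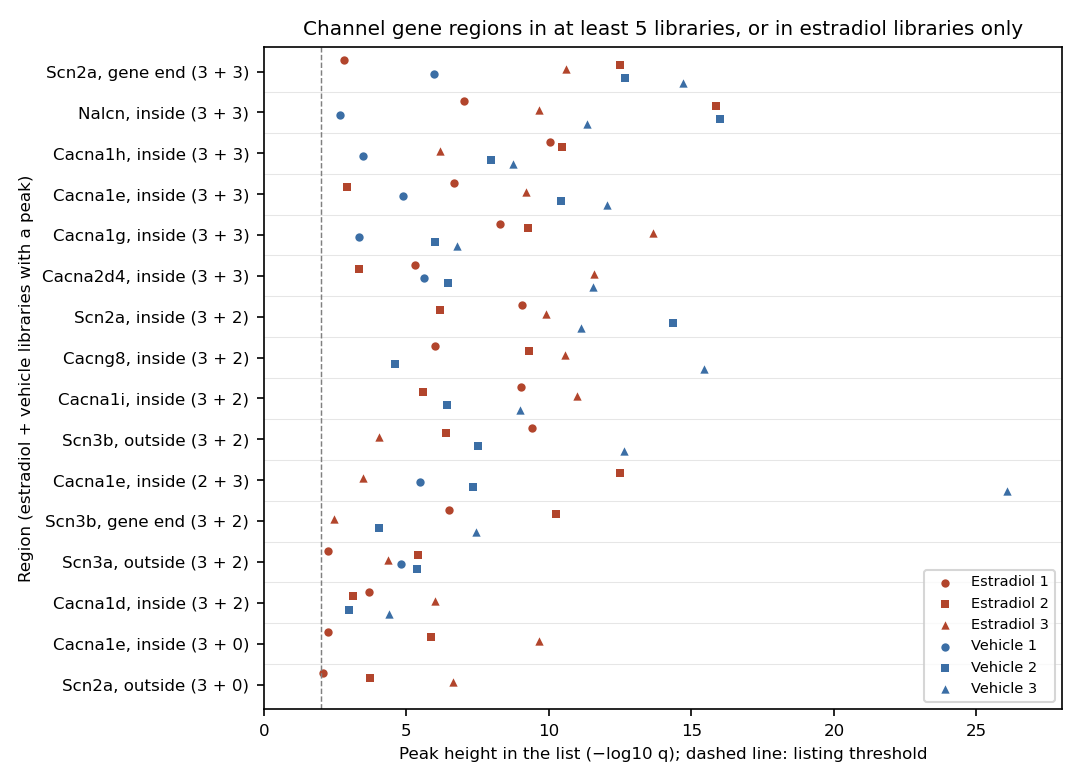
Listed peak height (−log10 q, horizontal axis) in each library for the 14 channel gene regions found in 5 or 6 libraries and the 2 estradiol-only regions, which stand at the bottom. Estradiol libraries are red, vehicle libraries blue, and circles, squares and triangles are replicates 1, 2 and 3; the highest value, 26.1, is that of vehicle replicate 3 in Cacna1e, and the dashed line marks the listing threshold.

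Cytosolic beta subunits of calcium channels bring the pore to the membrane. Their 4 genes had no gene-end peak, and held 2, 3 and 4 peaks in estradiol replicates 1, 2 and 3 and 1, 2 and 3 in vehicle replicates 1, 2 and 3. Cacnb4 had a region in 4 libraries, 52500055 to 52500111 on chromosome 2, with a −log10 q of 2.87 in estradiol replicate 3 and of 4.41, 4.42 and 3.03 in vehicle replicates 1, 2 and 3. A peak of estradiol replicate 1 lay 20 bp from it and was kept apart by the merging rule. Cacnb2 had 6 regions, each in 1 library, Cacnb3 had 1, and Cacnb1 had none.

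The alpha2delta subunits, extracellular proteins that raise channel density and include the targets of gabapentin, had no gene-end peak in any list. Their 4 genes held 3, 8 and 14 peaks in estradiol replicates 1, 2 and 3 and 1, 3 and 7 in vehicle replicates 1, 2 and 3. Much of this came from Cacna2d3, the longest of the 34 genes (818 kb), with 0, 6 and 9 peaks in the estradiol replicates and 0, 2 and 3 in the vehicle replicates. Replicates 2 and 3 of the estradiol group were above all vehicle libraries at this gene, while replicate 1 of both groups had none. Of its 14 regions 10 were seen in 1 library, and the most shared one (29476937 to 29477029 on chromosome 14) had peaks in replicates 2 and 3 of both groups.

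Cacna2d4, known from photoreceptors, had a region in all 6 libraries, 119329405 to 119329568 on chromosome 6, with a −log10 q of 5.30, 3.33 and 11.6 in estradiol replicates 1, 2 and 3 and of 5.63, 6.47 and 11.5 in vehicle replicates 1, 2 and 3. This region also lay inside Lrtm2, so it cannot be given to Cacna2d4 alone. Cacna2d1 had 2 regions, seen in estradiol replicates 1 and 3, and Cacna2d2 had 4, each in 1 library of replicate 3.

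The gamma subunit genes encode membrane proteins of which several bring AMPA receptors to synapses. Their 6 genes held 2, 3 and 5 peaks in estradiol replicates 1, 2 and 3 and 0, 3 and 10 in vehicle replicates 1, 2 and 3. Cacng8, which binds AMPA receptors, had the only gamma subunit region found in 5 libraries. This inside region, 3411377 to 3411635 on chromosome 7, had a −log10 q of 6.01, 9.31 and 10.6 in the estradiol replicates and of 4.59 and 15.5 in vehicle replicates 2 and 3. Its second region, 3.81 kb outside the gene, had peaks in replicates 2 and 3 of both groups. Cacng5 had 5 regions, and vehicle replicate 3 alone held 5 of its peaks. Cacng7 had a start-site region in replicate 3 of both groups (4.46 in estradiol, 6.76 in vehicle). Cacng2 had 3 regions and Cacng3 had 1, each in 1 library, and Cacng4 had none.

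The limit of 50 kb left few regions near it. Of the regions taken in, the farthest lay 43.3 kb from Scn3a, with 1 estradiol and 1 vehicle library, and the nearest one left out lay 56.7 kb from Cacna2d1, also with 1 and 1. Between 50 and 500 kb there were 7 regions with a channel gene as the nearest, and none of them had peaks in all libraries of one group and none of the other.

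Further genes of the same channels were taken from a list of 29: 11 other channel subunits and homologous factors (Fgf12 among them), 4 partners of the NALCN channel, 4 anchors of the axon initial segment, 7 calcium channel regulators and 3 presynaptic tethers. They had 122 regions, of which 0 were estradiol-only (background 0.737%), 0 vehicle-only (background 0.112%) and 5 in all 6 libraries (background 7.27%). With so few regions, a count of 0 is near the background. The constant regions lay at Sptbn4, a spectrin of the axon initial segment (2 regions), Fam155a, a NALCN subunit, Rrad, a small GTPase that inhibits calcium channels, and Rimbp2, which ties calcium channels to release sites. Of the 29 genes, Rimbp2 alone had a gene-end peak in all 6 lists (background 9.39%). Fgf12 had 10 regions within the same limits, with distal peaks in 3 estradiol and 2 vehicle lists.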

How the data were processed

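The data are 6 peak lists on mm10, 1 per library. Per the submitters' processing notes, cutadapt, Bowtie2, Picard, SAMtools, deepTools and MACS2 were used, without versions or roles, and peak names carry a q-value threshold of 0.01. The use of a control library in peak calling was not given in the sources used here. For each peak the deposited lists give an integer score, the summit, a fold enrichment over the background, and the −log10 of the p-value and of the q-value. These are the authors' own values and were used to describe and filter peaks within a list.

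Peaks were assigned to the genes of a RefSeq table (GRCm38.p6, the coordinates of mm10): to every span they overlapped, otherwise to the nearest span within 50 kb. The table has no exons. Strand came from the RefSeq promoter windows. Gene ends reached 1000 bp to either side. Of the regions, 3 also lay inside another protein-coding gene. Fragment numbers were solved from fold and p-value within 0.0002.

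The genes and lists were chosen with earlier results of these data known. Exact permutation tests were planned for sums over these genes, but no p-value of theirs is given for that reason. Named genes are those with an estradiol-only, vehicle-only or constant region, the 5 with most regions, those with none, and the highest peak by position; the others complete the list of 34. Assignment, merging and fragment numbers were tested on simulated data. Python 3.11.15, NumPy 2.4.6 and SciPy 1.17.1 were used. List length varied from 5421 to 20541 peaks, which bears on every count.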

Additional observations from a re-analysis of the deposited data

How the results depend on the processing

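Differences between the groups (estradiol minus vehicle) in the per-library measures changed sign with the processing. The number of genes with a gene-end peak (difference 0.667) turned to -0.333 with peaks of −log10 q of at least 5 and with gene ends of 2000 bp, to -1 in replicate 3 alone, and ran from -1.33 to 2.67 when 1 library was left out (-1.33 without vehicle replicate 1, -0.5 without estradiol replicate 3). The number of genes with a distal peak (2.67) turned to -0.333 with lists of equal length (the 5421 highest peaks of each), to -1 in replicate 3 alone, and ran from -2.17 (without vehicle replicate 1) to 6.33 with 1 library left out. Distal peaks per 1000 listed peaks (0.564) turned to -0.246 with lists of equal length and ran from 0.202 to 0.887 with 1 library left out. The share of channel gene peaks at gene ends (0.0792 percentage points) turned to -6.26 at −log10 q of at least 5, -0.361 with gene ends of 2000 bp and -3.83 in replicate 3 alone. With lists of equal length it moved the other way, to 11.5 (23.2% in estradiol, 11.8% in vehicle), the largest move of any alternative for this share. It ran from -1.75 (without estradiol replicate 1) to 1.64 with 1 library left out, and was -1.56 without vehicle replicate 1. The cause of these turns was not tested.

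The 2 estradiol-only regions became 0 at −log10 q of at least 5 and with equal lists, 1 where peaks had to cover 50% of a region, 9 where 2 of 3 libraries sufficed, and 2 to 7 with 1 library left out (7 without estradiol replicate 1, 4 without estradiol replicate 3, 4 without vehicle replicate 3). Vehicle-only regions (0) became 1 where 2 of 3 sufficed and 0 to 1 with 1 library left out. Replicates 1 and 2 alone, an alternative added after the data had been seen, gave 6 estradiol-only regions and 1 vehicle-only region. Regions in all libraries (6) became 0 at −log10 q of at least 5, 1 with equal lists, 1 with 50% cover, and 6 to 12 with 1 library left out (12 without vehicle replicate 1). Genes with a gene-end peak in all lists (1) became 0 at −log10 q of at least 5 and with equal lists, and 1 to 2 with 1 library left out. Genes with distal peaks in every estradiol list and no vehicle list (0) became 0 to 1. Merging over 500 bp and a flank of 10 kb left the region counts within 1.5 times.

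Correlations of deviations were -0.0293, 0.0213 and -0.0148 for same-numbered libraries, and ran from -0.0192 to 0.0404 for libraries of different number. They do not settle whether the numbers pair libraries, since list length rose from replicate 1 to 3 in both groups. With the replicate block, the difference in distal peaks per 1000 was 0.564. Counted by number, 11 regions leaned to estradiol and 2 to vehicle. These had a peak in that group alone in at least 2 of 3 numbers, and never the reverse. Not all were limited to 1 group, since both libraries of the remaining number could hold a peak, as at the Cacna1g gene end. Depth limits every count, since most channel gene peaks stand on 4 to 6 fragments.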
